A study of Mus musculus with 72 samples.

Results

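The fast tibialis anterior (TA) and the slow soleus (SOL) of control mice were compared on 36 of the 72 arrays of the series, 1 array for each muscle of 18 animals. The 18 TA arrays and the 18 SOL arrays were chosen by their labels alone, and each TA array was set against the SOL array of the same animal. The controls (Ctrl) were male C57BL/6 mice aged 5 months that lacked Cre. They were littermates of muscle-specific Bmal1 knockouts (mKO), in which Mlc1f-Cre, driven from the gene of a fast myosin light chain, deletes a floxed Bmal1. The labels do not state whether the controls carried the floxed allele. At each of 6 Zeitgeber times (ZT, in hours), spaced by 4 h, muscles came from 3 animals, and the replicates are therefore separate animals. The light phase began at ZT0 and ended at ZT12. Total RNA was measured on Affymetrix whole-transcript arrays, and 20239 named genes were tested.

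Skeletal muscle is built of slow fibres, which contract for long periods on oxidative fuel, and of fast fibres, which contract quickly and rely more on glycogen and glycolysis. The fibre types use different genes for the same part of the sarcomere, so myosin, troponin, tropomyosin and the calcium pump each come in a slow and a fast form. The soleus of the mouse is a postural muscle of slow and oxidative fast fibres, and the tibialis anterior, which lifts the foot, is nearly all fast. In whole muscle, fewer fibres of a type and less RNA in each fibre cannot be told apart.

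The values are log2 signals, so a difference of 1 is a 2-fold difference in signal, and differences are given as TA minus SOL. Array medians ran from 6.67 to 6.78 and single values from 2.17 to 14.4. Precision is limited by how many arrays there were. No detection calls were used, and where a gene's signal lay near or below the array medians, as for Myl2, Tnnc1, Myl6b and Tnni1 in TA, a fold is a ratio of signals whose standing above background was not tested. On the TA array of ZT0 replicate A, 15 liver genes averaged 10.7, against 5.35 to 7.48 on the other TA arrays and 5.39 to 7.17 on the SOL arrays. Albumin was above 8.5 in at least 1 muscle of 4 animals (ZT0 replicates A and B, ZT4 replicates B and C). Counts are therefore also given without the pair of ZT0 replicate A and without those 4 pairs. The animals carried identification numbers of 3 series, BM3 (12 animals), BM2* (4) and BM2 (2), whose meaning the labels do not give. No animal of ZT12 was in BM3.

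Of the 20239 genes, 8281 (40.9%) differed between the muscles at an adjusted p under 0.05 in limma's test on the within-animal differences. The difference was positive, with more signal in TA, for 4393 genes (21.7%) and negative, with more in SOL, for 3888 (19.2%). Most differences were small, with a median size of 0.25 among the called genes. A difference over 2-fold was called for 180 genes higher in TA (0.889%) and 229 higher in SOL (1.13%). Over 4-fold the counts were 29 in TA and 53 in SOL, and over 16-fold they were 0 and 11. Every TA array lay above every SOL array for 886 genes (4.38%), and the reverse held for 631 (3.12%). Without the pair of ZT0 replicate A, 4496 genes were higher in TA. Without the 4 pairs with albumin, 4056 were higher in TA and 3477 in SOL. All 409 genes over 2-fold kept their sign, and were called again, in the 6 animals of BM2 and BM2* alone. These animals were among the 18 by which the 409 genes were chosen, so this is not an independent test.

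**Figure D1:**
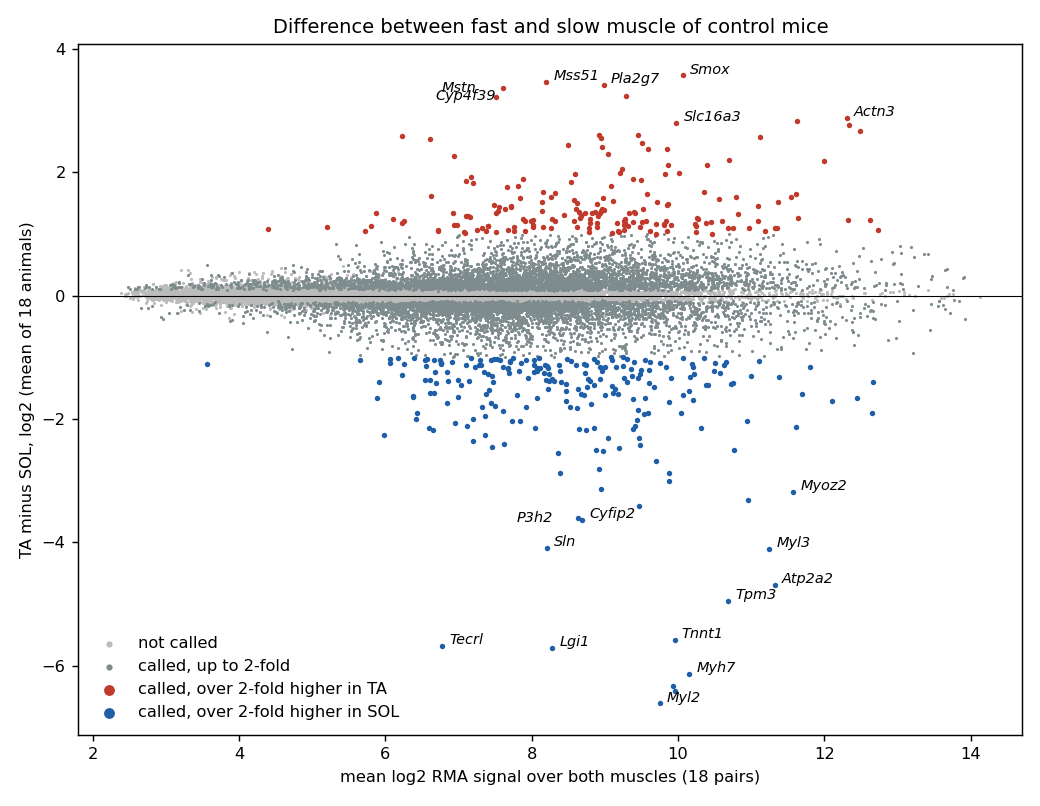
Difference between TA and SOL (log2, mean of 18 control animals) against the mean log2 signal over both muscles, with 1 point for each of 20239 genes. Red and blue mark called genes over 2-fold higher in TA (180) or SOL (229); the blue points reach -6.61 at Myl2, and the red points reach 3.57 at Smox.

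Of the 11 genes over 16-fold higher in SOL, 8 belonged to the slow fibre list. All 15 genes of the slow fibre list were higher in SOL, 14 of them over 2-fold. Over all genes 19.2% were higher in SOL and 1.13% were over 2-fold higher there. Their median difference was -4.11, against 0.0167 over all genes tested, and none of the 15 overlapped between the muscles. Every SOL array lay above every TA array for 3.12% of all genes. Myl2, the slow regulatory myosin light chain, had a signal of 5.60 to 7.71 in TA with a median of 6.34, and of 12.87 to 13.27 in SOL with a median of 13.05. Its lowest SOL array thus lay far above its highest TA array, and the difference was -6.61 ± 0.081 (SE, 18 pairs; adjusted p = 1.1e-19), or 97.9-fold. Myh7, the slow myosin heavy chain, lay between 6.67 and 7.90 in TA (median 7.01) and between 13.06 and 13.30 in SOL (median 13.22), a difference of -6.14 ± 0.084 (70.4-fold). The 3 slow troponins that form the calcium switch of the thin filament separated as widely. Tnnc1, which binds calcium, differed by -6.41 ± 0.068, Tnni1, which inhibits contraction, by -6.33 ± 0.072, and Tnnt1, which holds the complex on tropomyosin, by -5.59 ± 0.072.

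The slow tropomyosin Tpm3 differed by -4.95 ± 0.076 and the slow calcium pump Atp2a2 by -4.70 ± 0.051. Atp2a2 had a narrow range on both sides, 8.60 to 9.29 in TA and 13.60 to 13.75 in SOL. The slow essential light chain Myl3 differed by -4.11 ± 0.10 and the Z-disc protein Myoz2 by -3.18 ± 0.11. Both spread more in TA than in SOL, Myl3 from 8.58 to 10.41 in TA against 13.22 to 13.41 in SOL, and Myoz2 from 9.20 to 11.18 against 13.13 to 13.26. The stretch-related proteins Csrp3 (-2.88 ± 0.19) and Ankrd2 (-1.66 ± 0.12) varied most between animals. The Csrp3 difference ran from -4.30 to -0.69 over the 18 pairs. The smallest difference of the list was that of the slow myosin binding protein Mybpc1, -0.41 ± 0.031, whose signal in TA (12.69 to 13.04) was nearly that in SOL (13.15 to 13.33).

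Of the 16 fast fibre genes, 15 were higher in TA (93.8%, against 21.7% of all genes). The other, Myh2, was higher in SOL (6.25%, against 19.2%). The list median was 0.75, against 0.0167 over all genes tested. Actn3, the fast Z-disc actinin, differed by 2.89 ± 0.14, Mybpc2, the fast myosin binding protein, by 2.83 ± 0.11, and Pvalb, the calcium buffer parvalbumin, by 2.67 ± 0.13. The other fast forms lay high in both muscles and differed less. Mylk2, the myosin light chain kinase of skeletal muscle, differed by 1.60 ± 0.036, Mylpf, the fast regulatory light chain, by 1.10 ± 0.050, and the fast calcium pump Atp2a1 by 0.30 ± 0.026. Myl1, the fast essential light chain, differed by 0.09 ± 0.029 (adjusted p = 0.022). That call was lost after quantile normalisation (0.02, adjusted p = 0.51), in BM3 animals alone (0.07) and without the 4 pairs with albumin (0.09). Averaged over its 16 members the fast list stood at 13.21 to 13.31 on the TA arrays, while the highest value of any gene on any control array was 14.4. Whether the signal scale was compressed at that height was not tested.

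Set side by side, the forms that do the same work had differences of -6.33 for Tnni1 and 0.59 for Tnni2, -4.70 for Atp2a2 and 0.30 for Atp2a1, and -0.41 for Mybpc1 and 2.83 for Mybpc2. The sizes come from different probes, with most fast forms near the top of the scale in TA, and are not ranked against each other.

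The fast myosin heavy chains separated by kind. Myh4, the heavy chain of the fastest (IIb) fibres, was steady in TA, from 13.56 to 13.80, and ranged in SOL from 7.90 to 12.35 with a median of 11.81. On 12 SOL arrays it lay between 10.8 and 12.4, and on the other 6 between 7.90 and 9.69, namely ZT4 replicates A (9.69) and C (8.83), ZT8 replicate A (7.90) and ZT12 replicates A (9.57), B (8.24) and C (9.42). The mean difference was 2.76 ± 0.27 (6.80-fold, adjusted p = 1.6e-07), and it ran from 1.37 to 5.88 among animals. On the SOL array lowest for Myh4, Actn3 was also at its lowest, 9.26 against a SOL median of 11.17, and Pvalb stood at 9.98. Myh1, the IIx heavy chain, was closer, 13.21 to 13.54 in TA and 12.38 to 12.98 in SOL, with a difference of 0.70 ± 0.050. Myh2, the oxidative fast (IIa) heavy chain, lay between 10.74 and 12.80 in TA and between 13.48 and 13.70 in SOL, a difference of -1.90 ± 0.11. These heavy chain genes are similar in sequence, and signal shared between their probes was not tested.

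**Figure D2:**
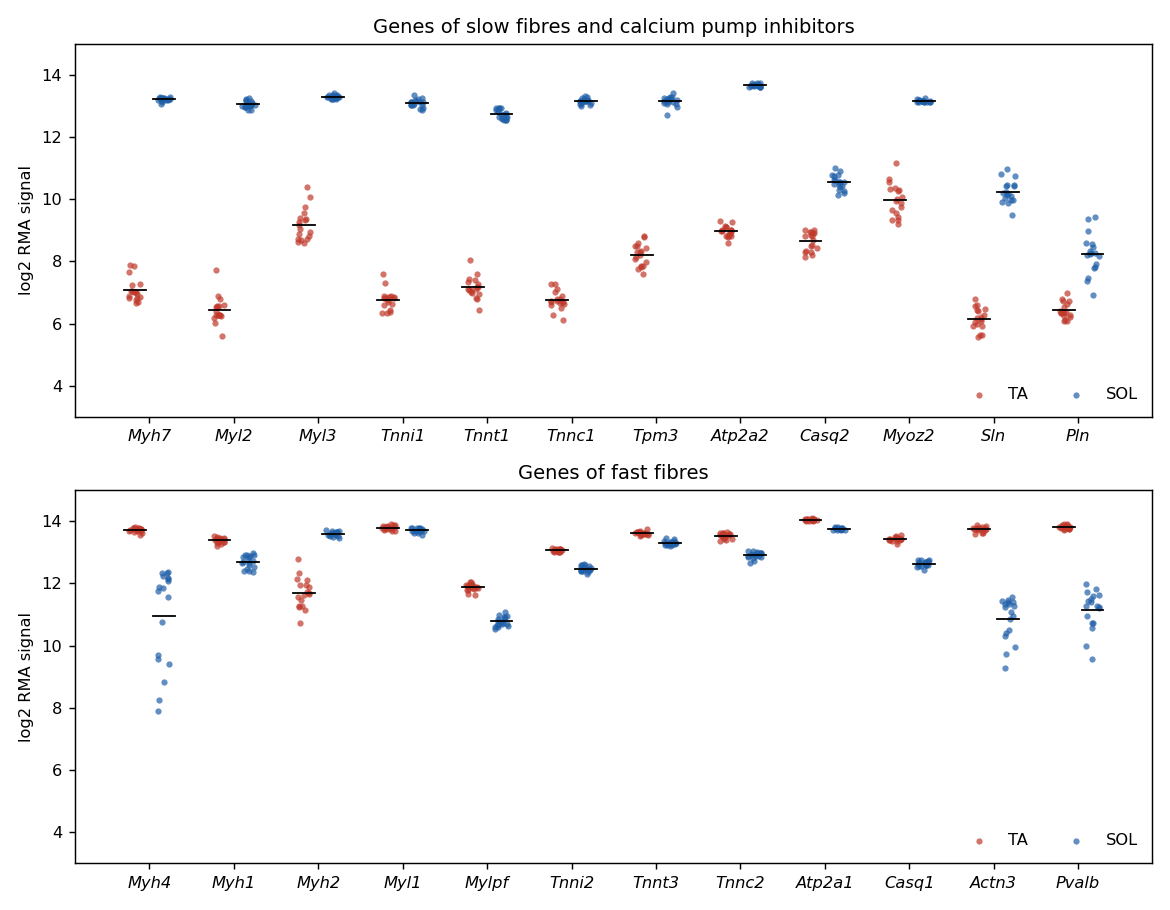
Log2 signal of 12 slow fibre genes and calcium pump inhibitors (top) and 12 fast fibre genes (bottom) on each of the 18 TA and 18 SOL arrays, with black lines at the means. The slow genes separated fully apart from Pln, which overlapped, while most fast genes lay above 12 in both muscles and Myh4 in SOL spread from 7.90 to 12.35.

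The promoters of these genes were read for 4 motifs, the site of MEF2, a factor that drives contractile genes in muscle, and the letters TCAAGGTCA, TCAGGTTTC and TGCTGAC. In the 250 bases before the start of transcription (RefSeq, GRCm38.p6), a match to the MEF2 site on either strand was found in 2 of 19 windows of the slow list (10.5%) and in 3 of 12 windows of the fast list (25%). Over all genes measured it was found in 464 of 19186 windows (2.42%). It was found in 14 of 245 windows of the genes over 2-fold higher in SOL (5.71%) and in 3 of 190 windows of those over 2-fold higher in TA (1.58%). TCAAGGTCA, the letters bound by oestrogen-related receptors, was found in 2 of 19 slow windows (10.5%), 0 of 12 fast windows and 55 windows of all genes (0.287%). For genes over 2-fold it was found in 2 of 245 windows higher in SOL (0.816%) and 2 of 190 higher in TA (1.05%). TGCTGAC was found in 1 slow window (5.26%) and 1 fast window (8.33%), against 3.52% of all windows. TCAGGTTTC was found in no window of the slow and fast lists and in 0.36% of all windows. A gene with several starts gives several windows, some of which overlap, and 15651 of the 20239 genes had a window. The 5 windows of the slow and fast lists with a MEF2 match are shown because they carry the same kind of site before genes that went opposite ways, with the match in capitals.
Myoz2, chr3:123034988-123035237, minus strand: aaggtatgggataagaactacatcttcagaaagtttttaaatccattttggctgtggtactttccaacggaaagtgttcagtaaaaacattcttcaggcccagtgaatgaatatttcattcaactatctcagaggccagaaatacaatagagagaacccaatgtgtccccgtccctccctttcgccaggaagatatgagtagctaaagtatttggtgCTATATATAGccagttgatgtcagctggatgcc
Casq2, chr3:102086165-102086414, plus strand: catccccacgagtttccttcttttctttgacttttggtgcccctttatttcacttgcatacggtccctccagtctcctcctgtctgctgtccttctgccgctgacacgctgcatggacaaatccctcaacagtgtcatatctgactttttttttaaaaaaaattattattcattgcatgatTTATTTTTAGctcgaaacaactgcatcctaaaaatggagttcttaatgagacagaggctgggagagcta
Myh4, chr11:67237562-67237811, plus strand: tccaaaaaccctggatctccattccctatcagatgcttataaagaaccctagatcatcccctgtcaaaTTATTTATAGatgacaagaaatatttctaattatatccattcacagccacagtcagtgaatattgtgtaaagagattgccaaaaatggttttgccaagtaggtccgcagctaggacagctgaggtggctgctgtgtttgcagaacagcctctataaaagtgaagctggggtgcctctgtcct
Myh1, chr11:67199852-67200101, plus strand: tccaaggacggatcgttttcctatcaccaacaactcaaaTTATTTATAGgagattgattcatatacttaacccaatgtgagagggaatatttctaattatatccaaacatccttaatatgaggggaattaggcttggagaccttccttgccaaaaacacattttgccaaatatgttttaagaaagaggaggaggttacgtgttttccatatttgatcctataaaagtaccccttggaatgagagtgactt
Pvalb, chr15:78206401-78206650, minus strand: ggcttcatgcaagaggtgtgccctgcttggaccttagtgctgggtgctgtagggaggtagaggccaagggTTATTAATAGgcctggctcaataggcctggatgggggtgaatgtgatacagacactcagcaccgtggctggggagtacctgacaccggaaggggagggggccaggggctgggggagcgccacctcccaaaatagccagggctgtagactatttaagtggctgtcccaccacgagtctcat

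Myh4 and Myh1, which are neighbours on chromosome 11, hold the same 10 letters, beginning 182 and 211 bases before the start. The Myoz2 match begins 33 bases before the start, where a TATA box lies in many promoters. No such letters were found in the windows of Myh7, Myl2, Tnni1, Tnnt1, Tnnc1 or Myl3. A match is a description of the letters and not a measured binding site.

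Sarcomere genes better known from embryonic or cardiac muscle went both ways, with 6 of 10 higher in SOL (60%, against 19.2% of all genes) and 2 higher in TA (20%, against 21.7%). Myh6, the atrial myosin heavy chain, differed by -1.39 ± 0.084 and Myh3, the embryonic one, by -1.36 ± 0.087. Myh6 lay between 7.17 and 7.93 in TA and between 8.70 and 9.30 in SOL. Myh3 lay between 5.63 and 6.42 in TA and between 6.62 and 8.07 in SOL. Signal shared between the probes of Myh6 or Myh3 and those of other myosin heavy chains, such as Myh7, was not tested. Actc1, cardiac actin, was higher in TA by 1.10 ± 0.092, but its ranges overlapped, 10.23 to 12.36 in TA and 9.67 to 10.55 in SOL. Actn2, the actinin of all fibres, was lower in TA (-0.93 ± 0.049).

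Genes of calcium release and reuptake were mostly higher in TA, 15 of 24 (62.5%, against 21.7% of all genes), with 7 higher in SOL (29.2%, against 19.2%) and a list median of 0.20. The most different were inhibitors of the calcium pump, which slow its uptake into the sarcoplasmic reticulum. Sarcolipin (Sln) lay between 5.55 and 6.80 in TA and between 9.51 and 10.99 in SOL, a difference of -4.09 ± 0.13 (17.0-fold). Phospholamban (Pln) differed by -1.81 ± 0.11, with SOL arrays from 6.93 to 9.42 that overlapped the TA range of 6.09 to 6.99. Another small peptide that acts on the pump, myoregulin (Mrln), went the other way, 1.21 ± 0.046, from 9.50 to 10.19 in TA and from 8.20 to 9.05 in SOL. Parts of the release machinery were higher in TA, with Cacng1, a subunit of the voltage sensor, at 1.18 ± 0.034. The junctophilins Jph2 (0.88 ± 0.047) and Jph1 (0.81 ± 0.033), which tie the outer membrane to the reticulum, were also higher in TA. The release channel Ryr1 itself differed by 0.21 ± 0.032. The store-operated entry genes Stim1 (-0.22 ± 0.042) and Orai1 (-0.21 ± 0.040) and the calcium pump of the outer membrane Atp2b1 (-0.22 ± 0.035) were slightly higher in SOL.

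Among the genes with the largest differences, several lie outside the sarcomere. Smox, spermine oxidase, led the genes higher in TA, from 11.37 to 12.42 in TA and from 7.81 to 8.71 in SOL, a difference of 3.57 ± 0.065 (11.9-fold, adjusted p = 2.1e-17). Mss51, a protein linked to muscle mitochondria, differed by 3.46 ± 0.13, Pla2g7, a secreted phospholipase, by 3.42 ± 0.060, and Mstn, myostatin, which limits muscle growth, by 3.36 ± 0.085. Cyp4f39, a cytochrome P450, followed at 3.23 ± 0.066 and Prkag3, a regulatory subunit of the AMP-activated kinase, at 2.61 ± 0.046. Tlcd4 (2.61 ± 0.080) and Neto2 (2.59 ± 0.091), an auxiliary subunit of glutamate receptors, complete the 15 largest together with genes given elsewhere here.

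On the SOL side, Lgi1, a secreted protein best known from the brain, lay between 4.75 and 6.18 in TA and between 10.68 and 11.51 in SOL, a difference of -5.72 ± 0.088. In TA it lay below every array median, and whether it stood above background there was not tested. Tecrl, an enzyme-like protein of the endoplasmic reticulum known from heart, lay between 3.38 and 4.59 in TA, near the low end of the scale, and between 8.98 and 10.58 in SOL (-5.68 ± 0.12). Cyfip2, an actin regulator, differed by -3.64 ± 0.056, P3h2, a collagen prolyl hydroxylase, by -3.61 ± 0.082, the M-band protein Myom3 by -3.41 ± 0.073 and the cytoskeletal adaptor Pdlim1 by -3.31 ± 0.068. None of the 30 genes with the largest differences overlapped between the muscles. Over all genes, every TA array lay above every SOL array for 4.38%, and the reverse held for 3.12%. The 30 were chosen for large differences with the same sign in every pair, which nearly fixes their separation. Their lack of overlap is therefore not a separate result and is not to be read against these shares.

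Transcription factors and cofactors tied to fibre type split nearly evenly, with 13 of 36 higher in TA (36.1%, against 21.7% of all genes), 17 higher in SOL (47.2%, against 19.2%) and 6 not called. Prox1, a homeobox factor known from slow fibres, was the most different, from 5.68 to 6.55 in TA and from 7.98 to 8.84 in SOL (-2.36 ± 0.084, 5.12-fold). The oestrogen-related receptors Esrrg (-1.51 ± 0.051) and Esrrb (-1.41 ± 0.049), which act on oxidative metabolism, were higher in SOL, while Esrra was slightly higher in TA (0.14 ± 0.041). In BM3 animals alone the Esrra call was lost (0.09). Rcan1, a target and inhibitor of calcineurin (-1.46 ± 0.051), the fatty acid receptor Ppara (-1.20 ± 0.058), the calcineurin-responsive factor Nfatc2 (-0.88 ± 0.059) and the cofactor Vgll2 (-0.84 ± 0.055) were also higher in SOL. Nfatc1 did not pass the test, with 8.52 ± 0.17 (SD, n = 18) in TA and 8.49 ± 0.18 in SOL. The coactivators of mitochondrial genes Ppargc1a (-0.32 ± 0.059) and Ppargc1b (-0.20 ± 0.048) were slightly higher in SOL.

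Of the 13 regulators higher in TA, Maf was the most different and ranged from 10.49 to 11.15 in TA and from 8.55 to 9.17 in SOL, a difference of 1.97 ± 0.048 (3.91-fold). Eya4, a coactivator of homeobox factors, differed by 1.78 ± 0.057, Sox6, a repressor of slow genes, by 0.94 ± 0.038, Mafa by 0.74 ± 0.065 and Tbx15 by 0.57 ± 0.033. Of the myogenic factors, Myod1 (0.92 ± 0.052) and Myf6 (0.46 ± 0.054) were higher in TA, Myf5 was lower (-0.20 ± 0.039), and Myog did not pass the test (5.90 ± 0.23 SD in TA, 5.92 ± 0.16 in SOL). The MEF2 genes moved apart by little, Mef2a at 0.29 ± 0.029, Mef2c at -0.23 ± 0.033 and Mef2d at -0.31 ± 0.040.

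Of 35 genes that mark position in the limb, 9 were higher in TA, 12 were higher in SOL and 14 were not called. The share higher in TA (25.7%) was near that of all genes (21.7%), the share in SOL was 34.3% against 19.2%, and the list median was 0.0035. Tbx3, a T-box factor of limb patterning, lay between 7.12 and 7.90 in TA and between 8.39 and 8.93 in SOL (-1.17 ± 0.040). En1, known from the ventral limb (-1.12 ± 0.060), the homeobox genes Hoxd8 (-1.05 ± 0.063) and Barx2 (-1.03 ± 0.046) and, by less, Hoxd10 (-0.49 ± 0.055) and Hoxc8 (-0.46 ± 0.035) were higher in SOL. Hoxa13 (0.61 ± 0.060), Hoxc10 (0.60 ± 0.039), Hoxa11 (0.54 ± 0.054) and Pax3 (0.48 ± 0.046) were higher in TA. Tbx4, a hindlimb factor, was higher in SOL (-0.44 ± 0.040), and Pitx1, another, did not pass the test (6.86 ± 0.15 SD in TA, 6.84 ± 0.20 in SOL).

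**Figure D3:**
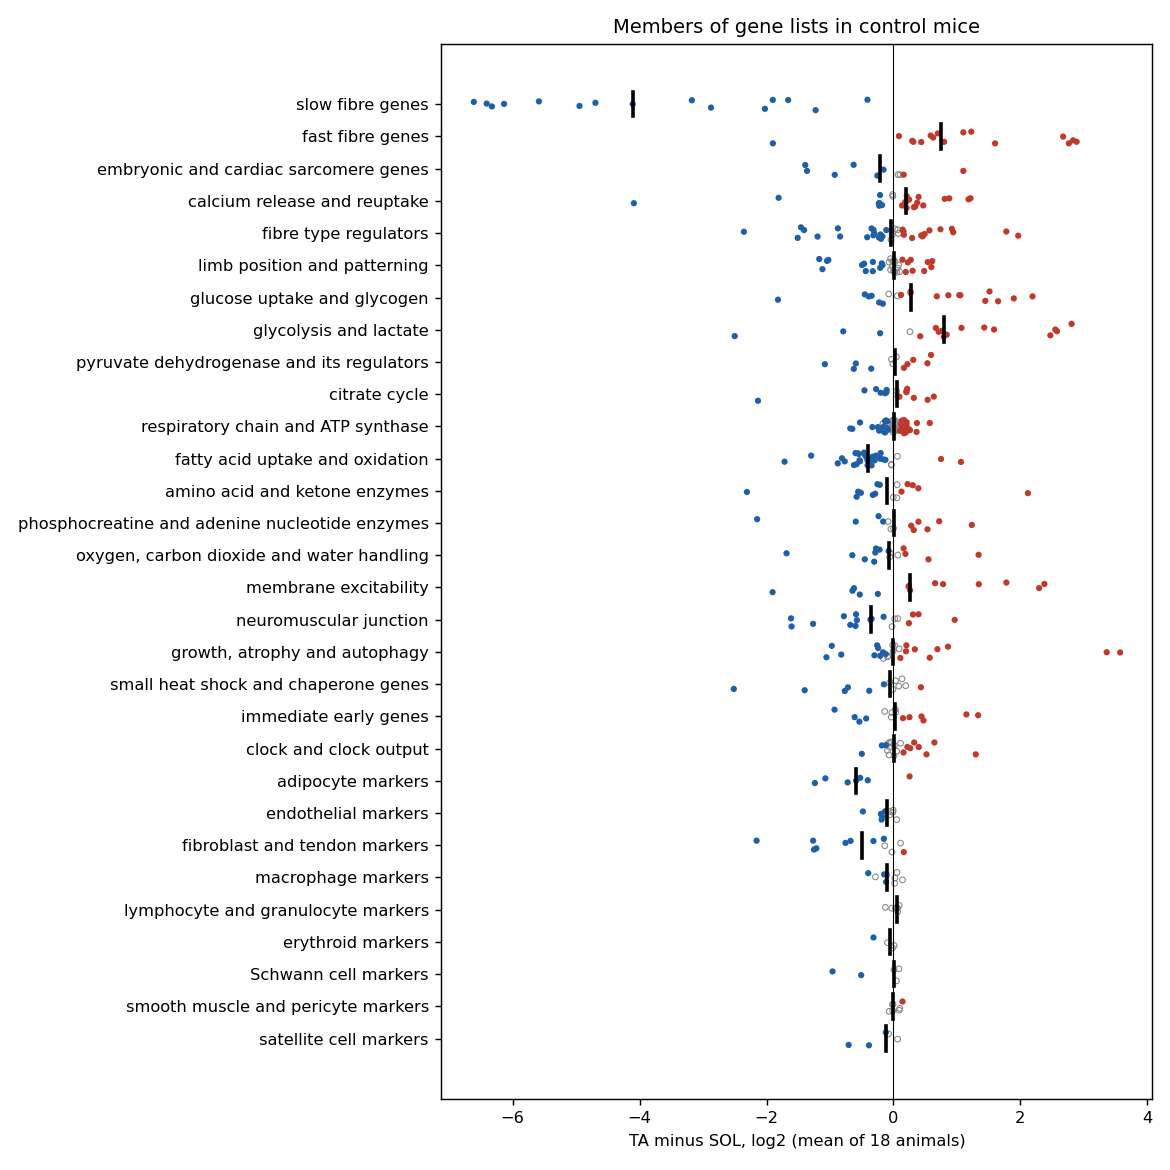
Difference between TA and SOL (log2, mean of 18 animals) for each measured member of 30 gene lists, with filled points for called genes, red where higher in TA and blue where higher in SOL, open points for genes not called and a black bar at the list median. Slow fibre genes lie to the left around -4.11 and glycolytic genes to the right around 0.79, while respiratory chain genes lie close to 0.

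Genes of glucose use were mostly higher in TA. Of 17 genes of glycolysis and lactate, 13 were higher in TA (76.5%) and 3 in SOL (17.6%), with a list median of 0.79. Of 20 genes of glucose uptake and glycogen, 12 were higher in TA (60%) and 6 in SOL (30%), with a list median of 0.27. The shares of all genes were 21.7% in TA and 19.2% in SOL. Slc16a3, the transporter that exports lactate, lay between 11.11 and 11.55 in TA and between 8.05 and 9.01 in SOL (2.81 ± 0.052, 7.00-fold). Both enzymes of the glycerol phosphate shuttle were higher in TA, Gpd1 by 2.58 ± 0.057 and Gpd2 by 2.47 ± 0.045. Pfkfb3, which makes the activator of phosphofructokinase, differed by 2.55 ± 0.11 with wide ranges, 8.57 to 11.55 in TA and 7.14 to 8.47 in SOL that did not overlap.

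Phosphorylase kinase, which starts glycogen breakdown, was higher in TA through its catalytic subunit Phkg1 (2.19 ± 0.044) and its regulatory subunit Phka1 (1.65 ± 0.042), as was the phosphoglucomutase Pgm1 (1.51 ± 0.039). The 9 genes of both lists that were higher in SOL included the glycogen primer Gyg (-0.34 ± 0.034) and the branching enzyme Gbe1 (-0.39 ± 0.039), and the glucose transporter Slc2a1 (-0.45 ± 0.039). The most different of them was Ldhb. Ldhb, the lactate dehydrogenase subunit of oxidative tissue, lay between 9.03 and 9.99 in TA and between 11.54 and 12.25 in SOL (-2.50 ± 0.060, 5.66-fold). Slc16a1, the transporter that imports lactate, was also higher in SOL (-0.79 ± 0.043). The paired regulators of glucose transporter traffic went opposite ways, Tbc1d1 at 1.90 ± 0.065 and Tbc1d4 at -1.82 ± 0.045. The hexokinase Hk2 did not pass the test, but did with array weights (10.51 ± 0.20 SD in TA, 10.45 ± 0.13 in SOL).

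Fatty acid genes were mostly higher in SOL, 29 of 34 (85.3%, against 19.2% of all genes), with 2 higher in TA (5.88%, against 21.7%) and a list median of -0.41. Lpl, the lipase that frees fatty acids from lipoproteins, lay between 11.01 and 11.73 in TA and between 12.79 and 13.06 in SOL (-1.72 ± 0.041). Acot2, a mitochondrial thioesterase (-1.30 ± 0.060), and the uptake proteins Cd36 (-0.88 ± 0.033) and Slc27a1 (-0.81 ± 0.043) followed. Higher in TA were Ucp3, a mitochondrial carrier (1.06 ± 0.056, ranges overlapping), and Acsl6, an acyl-CoA synthetase (0.75 ± 0.039).

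The citrate cycle and the respiratory chain did not follow that direction. Of 16 citrate cycle genes 7 were higher in each muscle (43.8%, against 21.7% of all genes in TA and 19.2% in SOL). Of 65 respiratory chain genes 20 were higher in TA (30.8%), 17 in SOL (26.2%) and 28 not called, with a median of 0.0134 and none over 2-fold. Of the citrate cycle genes Idh2, the mitochondrial isocitrate dehydrogenase that makes NADPH, was far higher in SOL (-2.13 ± 0.054, 4.39-fold), from 10.01 to 10.86 in TA and from 12.48 to 12.81 in SOL. Idh3a, a subunit of the cycle's own isocitrate dehydrogenase, was higher in TA (0.64 ± 0.049). The cytochrome oxidase subunits Cox6a2 (-0.68 ± 0.035) and Cox8a (-0.65 ± 0.035) led the respiratory genes higher in SOL, and Ndufb2 of complex I led those higher in TA (0.57 ± 0.087). Atp5b of the ATP synthase did not pass the test, but did after quantile normalisation (13.62 ± 0.04 SD in TA, 13.66 ± 0.02 in SOL). At the entry to the cycle Pdk1, a kinase that inhibits pyruvate dehydrogenase, was higher in SOL (-1.08 ± 0.036), with Pdk4 at -0.59 ± 0.041.

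Among amino acid and ketone enzymes, 8 of 16 were higher in SOL (50%, against 19.2% of all genes) and 5 in TA (31.2%, against 21.7%). Bdh1, the ketone body dehydrogenase, differed by -2.31 ± 0.083, and Oxct1, which activates ketone bodies, by -0.56 ± 0.035. Gpt2, the mitochondrial alanine transaminase, lay between 10.75 and 11.11 in TA and between 8.5 and 9.07 in SOL (2.12 ± 0.053). The AMP deaminases went opposite ways, Ampd1 of fast muscle at 0.72 ± 0.031 and Ampd3 at -2.15 ± 0.055. Of the 15 genes of oxygen, carbon dioxide and water handling, 8 were higher in SOL (53.3%) and 4 in TA (26.7%). The water channel Aqp4 (1.34 ± 0.049) and the oxygen-sensing hydroxylase Egln3 (-1.68 ± 0.084) were the most different.

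Ion transport genes of the fibre membrane were all called, against 40.9% of all genes, with 9 of 14 higher in TA (64.3%, against 21.7%). The sodium pump subunit Atp1b2 lay between 10.52 and 10.99 in TA and between 8.01 and 8.87 in SOL (2.38 ± 0.054), while Atp1b1 was higher in SOL (-0.65 ± 0.039). Of the potassium channels, Kcnc4 (2.30 ± 0.041), Kcng4 (1.78 ± 0.056) and Kcnc1 (1.35 ± 0.056) were higher in TA, and the calcium-activated Kcnma1 was higher in SOL (-1.90 ± 0.038), from 8.90 to 9.26 in TA and from 10.63 to 11.17 in SOL.

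Genes of the neuromuscular junction were higher in SOL for 11 of 18 (61.1%, against 19.2% of all genes) and in TA for 4 (22.2%, against 21.7%). Chrna1, a subunit of the acetylcholine receptor, lay between 8.02 and 8.60 in TA and between 9.53 and 10.21 in SOL (-1.61 ± 0.034). The adhesion molecule Ncam1 (-1.61 ± 0.059), the receptor kinase Musk (-1.27 ± 0.043) and the receptor subunit Chrnd (-0.78 ± 0.036) were higher in SOL too. Ache, the esterase that ends the signal (0.97 ± 0.050), and the adult receptor subunit Chrne (0.31 ± 0.051) were higher in TA.

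Growth, atrophy and autophagy genes split 9 and 9 of 25 (36% each, against 21.7% of all genes in TA and 19.2% in SOL). Besides Smox and Mstn, the binding protein Igfbp5 was higher in TA (0.86 ± 0.061), and Cdkn1a, a cell cycle inhibitor (-1.06 ± 0.058), Bnip3, a mitophagy receptor (-0.97 ± 0.067), and Fst, the myostatin antagonist follistatin (-0.82 ± 0.048), were higher in SOL. Of 13 chaperone genes 6 were higher in SOL (46.2%) and 1 in TA (7.69%), Hspb8 (0.43 ± 0.043). Hspa1a, an inducible heat shock protein, lay between 6.96 and 9.12 in TA and between 9.53 and 10.99 in SOL (-2.52 ± 0.095, 5.72-fold), and Hspb7 (-1.40 ± 0.083), Bag3 (-0.77 ± 0.047) and Cryab (-0.72 ± 0.042), which tend the Z-disc, followed. Signal shared between Hspa1a and its near-identical copy Hspa1b was not tested. Among 15 immediate early genes, which respond within minutes to activity and handling, 6 were higher in TA (40%) and 4 in SOL (26.7%). Nr4a3 (1.33 ± 0.16) and Nr4a1 (1.15 ± 0.045) were the most different of those higher in TA and Btg2 (-0.93 ± 0.064) of those higher in SOL.

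Clock genes, whose products form the daily feedback loop, went both ways in their mean over the day. Of 21 clock and clock output genes 8 were higher in TA (38.1%, against 21.7% of all genes) and 3 in SOL (14.3%, against 19.2%), with a median of 0.0130. Bhlhe41, a repressor in the clock, lay between 8.90 and 9.76 in TA and between 7.03 and 8.99 in SOL (1.30 ± 0.083). Rora, an activator of Arntl, was the only one without overlap, from 10.26 to 10.79 in TA and from 9.40 to 10.05 in SOL (0.65 ± 0.036). Tef, an output factor, differed by 0.52 ± 0.037, Arntl, which encodes BMAL1, by 0.40 ± 0.048 and its partner Npas2 by -0.50 ± 0.053. Per1, Per2, Per3, Cry1, Nr1d1, Dbp and Ciart did not pass the test, with differences from -0.09 for Per1 to 0.11 for Nr1d1, which passed it with array weights (0.21).

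Markers of other cell types were measured beside these lists. Of 7 adipocyte markers 6 were higher in SOL and 1 was higher in TA, by 0.25. Adipoq differed by -1.24 ± 0.11 (5.63 to 6.54 in TA, 6.26 to 8.16 in SOL). The adipocyte list averaged 6.99 to 7.47 on the TA arrays and 7.29 to 8.46 on the SOL arrays. Of 12 fibroblast and tendon markers 8 were higher in SOL and 1 in TA, led by the tendon genes Chad (-2.16 ± 0.11), Comp (-1.27 ± 0.064), Tnmd (-1.25 ± 0.069) and Fmod (-1.21 ± 0.075), while the fibroblast gene Pdgfra passed the test only without the 4 pairs with albumin (8.39 ± 0.14 SD in TA, 8.41 ± 0.15 in SOL). The list averaged 8.13 to 8.86 in TA and 8.92 to 9.58 in SOL. Of 10 endothelial markers 5 were higher in SOL and 0 in TA, by at most 0.48 (Emcn, -0.48 ± 0.047). Of 5 Schwann cell markers Pmp22 (-0.96 ± 0.040) and Mbp (-0.51 ± 0.044) were higher in SOL, and Sox10, which defines the cell, did not pass the test (6.89 ± 0.18 SD in TA, 6.88 ± 0.15 in SOL). Of 9 macrophage markers 3, of 5 satellite cell markers 3 and of 4 erythroid markers 1 were higher in SOL, and none of these was over 2-fold. Over all genes 19.2% were higher in SOL, and these lists are too short to be read against that share. Of 7 smooth muscle markers 1 was higher in TA, and 0 of 7 lymphocyte and granulocyte markers were called (limma's test). The part of fat, tendon or nerve tissue in the differences of the genes above was not tested.

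Of 15 liver markers 1 was called, Cyp2e1 at -1.17 ± 0.27, higher in SOL in 16 of 18 pairs. The call was lost in BM3 animals alone (-1.08). Its highest TA value, 11.45, was that of ZT0 replicate A, and without that pair the difference was -1.42. The other liver markers had differences up to 0.50 for Alb, which did not pass the test.

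Of 307 microRNA loci on the array, 73 (23.8%) were called, 43 higher in SOL and 30 in TA, against 40.9% of all genes. These probe sets read RNA of the hairpin locus and not the mature microRNA, and the loci named here were chosen after their values were seen. The 4 loci over 2-fold were all higher in SOL. Over all genes 1.13% were called over 2-fold higher in SOL and 0.889% in TA. The 4 of 307 loci are too few to be read against these shares. Mir133b lay between 5.90 and 6.69 in TA and between 6.77 and 10.1 in SOL, without overlap (-2.45 ± 0.12, adjusted p = 9.5e-12). Its neighbour on chromosome 1, Mir206, lay close to the lowest signals of the arrays, between 2.84 and 3.16 in TA and between 3.26 and 5.30 in SOL (-1.11 ± 0.13). Mir27b (-1.04 ± 0.066), Mir23b (-1.04 ± 0.083) and, just under 2-fold, Mir24-1 (-0.91 ± 0.067) lie together on chromosome 13. Mir1a-1 differed by -0.62 ± 0.13. Mir499 and Mir208a, which lie within the myosin genes Myh7b and Myh6, did not pass the test (-0.13 ± 0.070 and 0.06 ± 0.057), while their host genes were both higher in SOL. Of the mature forms of the 2 clusters, 4 whose names end in 3p are shown because neighbouring loci were higher in SOL together. Their seed (bases 2 to 8) is in capitals (RefSeq, GRCm38.p6). The 5p forms are left out, as is Mir23b.
miR-133b-3p, chr1:20682834-20682855, plus strand: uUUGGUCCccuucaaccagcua
miR-206-3p, chr1:20679055-20679076, plus strand: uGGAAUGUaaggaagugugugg
miR-27b-3p, chr13:63300760-63300780, plus strand: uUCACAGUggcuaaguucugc
miR-24-3p, chr13:63301251-63301272, plus strand: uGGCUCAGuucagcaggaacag

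The 4 seeds differ from one another.

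Whether the muscle difference changed over the day was tested across the 6 times. It did for 14 genes (0.0692%, moderated F test of limma, adjusted p under 0.05). An unadjusted p under 0.05 was found for 926 of 20239 genes, fewer than that threshold would give on average if no gene varied. Tmem171, a membrane protein, had a range of 0.30 between its highest and lowest time means in TA and of 2.25 in SOL. Its signal in SOL fell from 8.85 ± 0.30 at ZT0 to 6.60 ± 0.28 at ZT12 (SD, n = 3), while TA stayed between 6.15 and 6.46. The difference accordingly went from -2.45 at ZT0 to -0.44 at ZT12 (adjusted p = 0.00036). Rrad, a small GTPase that restrains calcium channels, followed the same course, with a range of 1.73 in SOL and 0.27 in TA and a difference from -2.29 at ZT0 to -0.54 at ZT12. Metrnl, a secreted protein of muscle and fat, varied over 0.76 in SOL, highest at ZT0 and lowest at ZT12, and over 0.28 in TA. Fzd9, a Wnt receptor, varied over 1.27 in SOL and 0.24 in TA.

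Pim1, a kinase of growth signalling, did the reverse and varied in TA, over 1.64, and less in SOL, over 0.34. Its difference was 1.60 at ZT0 and 0.30 at ZT12. Nr4a1 varied over 1.01 in TA, highest at ZT16, and over 0.56 in SOL, highest at ZT0, with differences from 0.57 at ZT0 to 1.74 at ZT16. Irs2, an adaptor of the insulin receptor, was highest in TA at ZT16 and in SOL at ZT0, with differences from -0.84 at ZT20 to 0.13 at ZT8. In both muscles Arrdc3, an arrestin-like protein, was highest at ZT12 and lowest at ZT4, and the deubiquitinase Otud1 was highest at ZT16 and lowest at ZT4. Cpeb1, a regulator of translation, was highest at ZT4 in TA and at ZT12 in SOL. The remaining 4 genes, Spsb4, Vwa3a, Rnf122 and Fzd7, were named after their values were seen. No clock gene of the list was among the 14. The count was 3 without the 4 pairs with albumin, all of which belong to ZT0 and ZT4, and 7 to 15 when 1 pair was left out. It fell to 7 without ZT4 replicate A, ZT12 replicate C or ZT20 replicate C, to 8 without ZT4 replicate B and to 9 without ZT4 replicate C, ZT8 replicate B or ZT20 replicate B. All animals of ZT12 belong to BM2 or BM2*, so that time and these series cannot be told apart there.

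**Figure D4:**
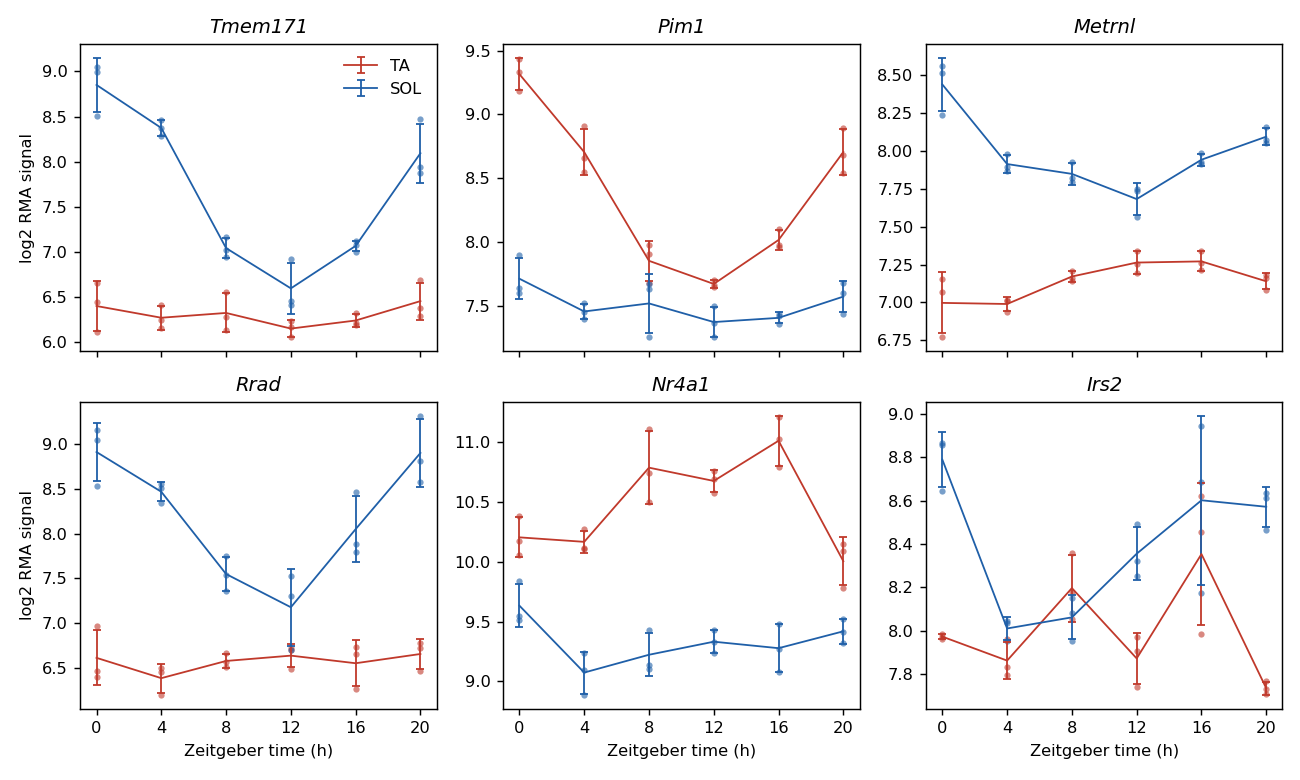
Log2 signal of 6 genes whose muscle difference varied over the day, against Zeitgeber time in h, in TA (red) and SOL (blue), with points for animals and lines and bars for mean and SD (n = 3). Tmem171 and Rrad vary in SOL, over 2.25 and 1.73, and Pim1 varies in TA, over 1.64.

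The same muscles of the 18 mKO animals were used to see where the difference depends on the genotype. It was called in mKO for 9853 genes (48.7%), of which 6985 had also been called with the same sign in Ctrl, 84.3% of the genes called in Ctrl and 70.9% of those called in mKO. The difference itself differed between genotypes for 549 genes (2.71%), with Ctrl minus mKO above 0 for 307 and below 0 for 242. The count was 353 without the 4 pairs with albumin. The animal series were not spread alike over the genotypes. At ZT20 all 3 mKO animals belonged to BM2 and all 3 Ctrl animals to BM3, and at ZT16 all 3 mKO animals belonged to BM3 and 2 of 3 Ctrl animals to BM2*. With the series as a term the count was 465, of which 449 were among the 549 with the same sign. It was 222 without ZT16 and ZT20, 243 in BM3 animals alone, where the genotypes do not cover the same times, and 148 in BM3 animals at the times both have. All 549 kept their sign in these 4 series fits, which reuse the animals by which the 549 were chosen and so are not an independent test. Of the 409 genes over 2-fold in Ctrl, 405 were called with the same sign in mKO and 110 differed between genotypes. Car3, a carbonic anhydrase of slow muscle, was nearly level in Ctrl (-0.08 ± 0.029) and lower in TA in mKO (-1.73), a Ctrl minus mKO value of 1.66 (adjusted p = 4.8e-18). Prss55, a serine protease, stood at 0.28 in Ctrl and 2.37 in mKO. Both were called in each series fit.

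Several of the slow and fast genes with the widest separation gave no call between genotypes, among them Myl2 (-6.61 in Ctrl, -6.54 in mKO), Myh7 (-6.14 and -5.84), Tnni1 (-6.33 and -6.26) and Myh4 (2.76 and 2.56). Of the slow list Myoz2 (-3.18 and -2.41), Casq2 (-1.90 and -1.21), Ankrd2 (-1.66 and -0.79) and Myh7b (-1.23 and -0.96) were closer between the muscles in mKO, and Myl6b, Mybpc1 and the pump inhibitor Pln were farther apart (-2.03 and -2.73, -0.41 and -0.61, -1.81 and -2.82). The call for Myh7b was lost in all 4 series fits (-0.24 with the series as a term). It was lost for Mybpc1 in the other 3 and for Myoz2 and Myl6b in BM3 animals at shared times.

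**Figure D5:**
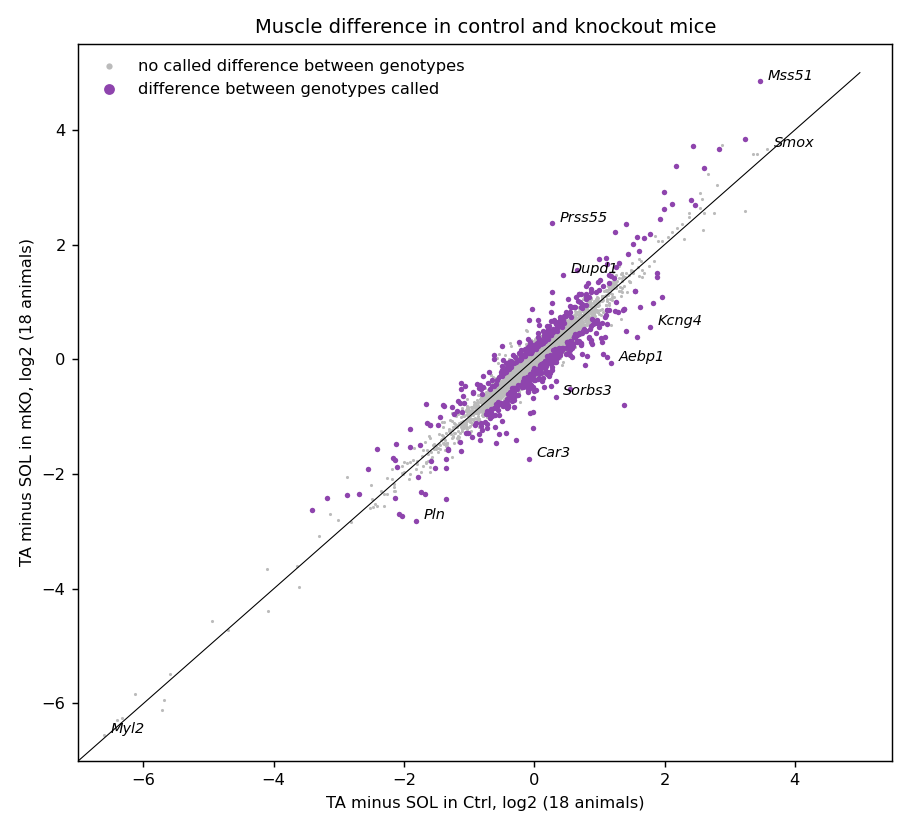
Difference between TA and SOL (log2) in 18 mKO animals (vertical) against that in 18 control animals (horizontal), with 1 point for each of 20239 genes, purple where the difference between genotypes was called (549 genes), and the line of equal values. Myl2 and Smox lie near the line, while Car3 and Prss55 differ by 1.66 and -2.09.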

How the data were processed

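The authors deposited 1 table of log2 signals, which per the submitters' processing notes came from RMA (version not stated) and which cover 72 arrays. Of its 21225 probe sets, 20239 were kept, 1 for each gene symbol, namely that with the highest mean over all 72 arrays. The other 986 had no symbol, several symbols, or a symbol shared with a probe set of higher mean. These kinds were not counted apart. All 20239 matched RefSeq (GRCm38.p6) by Entrez number. No gene was filtered by its signal, and no value was scaled.

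The difference between TA and SOL was taken within each of 18 control animals, since the labels give both muscles of an animal 1 identity. It was fitted with lmFit and eBayes of limma 3.58.1 (R 4.3.3) with a term for each of 6 times, and tested as the mean over times. Change over time was tested with the moderated F test, and the difference between genotypes on 36 pairs. Adjusted p-values are Benjamini-Hochberg values over the 20239 genes, and 0.05 was the threshold. Errors of differences are standard errors of this fit. After subtraction of the mean of each muscle and time, the arrays of an animal had a median r of 0.055 (-0.197 to 0.352, over 0.1 in 6 of 18 pairs). The closest control arrays correlated with r = 0.9952, and no array was a copy.

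The members and the 31 gene lists were chosen with earlier results of these data known. The genes named were the 15 with the largest called difference in each direction, the 10 whose difference varied most clearly over time, members of the sarcomere, calcium, regulator, patterning and clock lists, up to 4 called members of every other list in each direction and 2 not called, and 5 in each direction between genotypes. Other names were chosen after their values were seen. The 15 of each direction were drawn from called genes whose difference had the same sign in every pair. Scripts were tested on simulated data. Alternatives covered the block, centring, quantile normalisation, array weights, time terms, a level filter, the animal series and left-out pairs.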

Additional observations from a re-analysis of the deposited data

Results flagged for a closer look

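Of 362 genes named by rule, 69 had a difference between TA and SOL that differed between Ctrl and mKO by limma's test, adjusted over all 20239 genes, of which 2.71% were called. Of the 362, 5 in each direction had been named by this same test and are among the 69. The 69 of 362 are therefore not to be read against that share. With the animal series as a term 60 of the 69 were called, the call being lost for Wee1, Oxct1, Myoz1, Gpd2, Hoxc8, Myh7b, Cpeb1, Bhlhe41 and Mybpc2. In Ctrl the difference varied over the day for 14 genes. The values below are Ctrl minus mKO in log2 units, each over 18 pairs per genotype, and no explanation was tested. By estimate alone, the difference had opposite signs in the 2 genotypes in 12 cases. In some of these it did not pass the test in 1 genotype, as for Nr1d1 in Ctrl (0.11). In 21 cases the difference had the same sign and was larger in Ctrl, and in 36 the same sign and was smaller in Ctrl.

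Among sarcomere and calcium genes the value was positive for Pln (1.01), Myl6b (0.71), Myh3 (0.54), Myl4 (0.34), Mybpc1 (0.20) and Calb1 (0.91). It was negative for Myoz1 (-0.20), Cacna1s (-0.23), Myh7b (-0.27), Cacng1 (-0.27), Casq2 (-0.70), Myoz2 (-0.76), Myom3 (-0.79), Mybpc2 (-0.84), Ankrd2 (-0.87), Actc1 (-0.67) and Slc8a1 (-0.99). In the clock list it was positive for Dbp (0.86), Bhlhe40 (0.74), Nr1d2 (0.71), Hlf (0.51), Nr1d1 (0.48), Per1 (0.47), Per3 (0.45), Usp2 (0.42), Wee1 (0.32), Tef (0.24) and Rora (0.23) and negative for Bhlhe41 (-0.38) and Npas2 (-0.74). Among transcriptional regulators and patterning genes it was positive for Vgll2 (0.56), Nrip1 (0.30) and Mef2a (0.14) and negative for Eya4 (-0.42), Tead4 (-0.52) and Hoxc8 (-0.23).

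Among metabolic genes the value was positive for Car3 (1.66), Glul (0.55) and Oxct1 (0.22) and negative for Ampd1 (-0.19), Gpd2 (-0.22), Ivd (-0.24), Car2 (-0.29), Gpt2 (-0.59), Gatm (-0.78) and Cyp4f39 (-0.62). In the membrane and junction lists it was positive for Kcng4 (1.21) and negative for Kcnma1 (-0.38), Chrnb1 (-0.35), Musk (-0.43) and Chrna1 (-0.46). Among stress, growth and marker genes it was negative for Cdkn1a (-0.59), Hspb7 (-0.61), Atf3 (-0.68), Mbp (-0.29) and Sdc4 (-0.29). Outside the lists it was positive for Aebp1 (1.25), Mical2 (1.20), Nkain1 (1.06), Sorbs3 (0.99) and Tmem171 (0.37). It was negative for Cpeb1 (-0.28), Pim1 (-0.36), Tlcd4 (-0.74), Tmem234 (-0.91), Ttll7 (-0.95), Dupd1 (-1.04), Mss51 (-1.38) and Prss55 (-2.09).

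Over the 6 times in Ctrl, the range of the difference between TA and SOL was largest for Tmem171 at 2.003, followed by Rrad at 1.75, Fzd9 at 1.43, Cpeb1 at 1.32 and Pim1 at 1.30. It was 1.29 for Otud1, 1.20 for Arrdc3, 1.19 for Rnf122, 1.16 for Nr4a1, 1.03 for Fzd7 and 1.02 for Metrnl. For Irs2, Spsb4 and Vwa3a it was 0.97, 0.87 and 0.79.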

How the results depend on the processing

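Without the replicate block, which pairs the muscles of an animal, 4516 genes were higher in TA and 3922 in SOL, 8044 of them shared with the paired test (237 were called in the paired test alone and 394 in the unpaired test alone). It changed no count by over 1.5 times. In the 6 animals of BM2 and BM2* alone, 2318 genes were higher in TA and 2004 in SOL, fewer animals being tested. There 6 named genes that had been called changed sign, namely Hdac4 (-0.074), Hdac5 (0.016), Ckb (0.038), Wee1 (-0.11), Hbb-bs (0.12) and Pax7 (0.00043), and 59 lost their call. Leaving out 1 pair gave 4162 to 4496 genes higher in TA, 3674 to 3971 higher in SOL, 177 to 184 and 222 to 234 over 2-fold, and 367 to 379 called members of the lists. It gave 892 to 955 and 633 to 681 genes without overlap, 7 to 15 genes varying over time and 485 to 611 genes differing between genotypes. The count varying over time was 38 among genes above the median level, 57 with a cosine and sine of 24 h and 3 without the 4 pairs with albumin. The count between genotypes was 353 without the 4 pairs, 465 with the animal series as a term, 243 in BM3 animals, 148 in BM3 animals at the times both genotypes have and 222 without ZT16 and ZT20. The cause was not tested. The median of all genes stayed between -7e-04 and 0.0436 under the settings tried, and the share of calls higher in TA between 51% and 57.5%. The alternatives without the 4 pairs, the left-out pairs of the genotype comparison and its series fits other than BM3 animals alone were chosen after seeing the data. The number of arrays, 3 pairs at each time, limits what can be called at single times.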

Other observations

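Of 12 genes of pyruvate dehydrogenase and its regulators, 5 were higher in TA (41.7%, against 21.7% of all genes) and 4 in SOL (33.3%, against 19.2%). Higher in TA were the phosphatase Pdp1, which activates the complex (0.59 ± 0.039), and the subunit Pdhb (0.54 ± 0.037), and higher in SOL, besides Pdk1 and Pdk4, were the other phosphatase Pdp2 (-0.62 ± 0.049) and the kinase Pdk3 (-0.35 ± 0.045). Of 13 phosphocreatine and adenine nucleotide genes, 6 were higher in TA (46.2%) and 4 in SOL (30.8%). Gamt, which makes creatine, lay between 8.70 and 9.29 in TA and between 7.34 and 8.21 in SOL (1.24 ± 0.077), while Slc6a8, which takes creatine up, was higher in SOL (-0.59 ± 0.043). Adenylate kinase Ak1 (0.54 ± 0.027) and the muscle creatine kinase Ckm (0.28 ± 0.027) were higher in TA.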
